A study of Mus musculus with 6 samples.

Results

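Protocadherins are cell adhesion molecules of the cadherin superfamily. They were taken here as all rows of the count table whose gene name begins with Pcdh, 70 of 23079 rows. Of these, 14 belong to the alpha cluster, 21 to the beta cluster and 22 to the gamma cluster, 12 are non-clustered genes, and 1 row, Pcdha4-g, reaches from the alpha into the gamma cluster and was kept apart. The members were chosen by name, but the family was picked with the knockdown results of these libraries known, so its counts describe the libraries and support nothing beyond them.

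The RNA came from midbrain dopaminergic neurons of 4-month-old C57BL/6 mice of the Dat bacTRAP line, in which dopamine transporter (Dat) sequences drive a tagged ribosomal protein. The substantia nigra and ventral tegmental area were dissected from 1 mm slices; the labels give total RNA and state no capture step. Every mouse received an AAV1 vector with an shRNA and EGFP. The 3 control libraries carry a scrambled shRNA and the 3 knockdown libraries an shRNA against Satb1, which encodes a chromatin organiser; the sample titles call it siRNA. The labels mention 3 mice and do not assign them to libraries, so a p-value covers the variation among libraries, which may be technical.

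Clustered protocadherin genes are arranged in tandem, and a neuron chooses a few of them, largely at random, by selecting among alternative promoters with the help of CTCF and cohesin. An alpha or gamma transcript joins 1 variable exon, which encodes the extracellular and membrane part, to constant exons at the 3′ end of its cluster, which encode a shared cytoplasmic end. Beta genes have a single coding exon and no constant exons. The resulting combinations act in recognition between the processes of the same neuron, and the C-type isoforms at the ends of the alpha and gamma clusters are expressed more constantly than the others. Non-clustered protocadherins, among them the delta group, are single genes with roles in adhesion, axon growth and synapse formation.

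The libraries held between 147486754 and 170351145 counts. Levels are given in CPM, counts scaled to library size after adjustment by the trimmed mean of M-values (TMM), always in the order of libraries 1, 2 and 3. Satb1, the targeted gene, was at 351, 349.6 and 319.8 CPM among controls and fell to 82.9, 166 and 61.2 CPM under the knockdown, a log2 fold change of -1.72 ± 0.26 (SE; edgeR, adjusted p = 0.00106). Marker genes of some cell types moved with the groups. Of all 16766 genes tested, 8.48% were called higher and 12.6% lower at an adjusted p under 0.05 in edgeR. Of 10 oligodendrocyte markers 8 were called higher and none lower, and their summed level lay between 403 and 472 CPM in the controls and between 636 and 719 CPM in the knockdown. Of 14 dopamine neuron markers 7 were called lower and none higher, and the median log2 fold change was -0.35. Their summed level, most of it Th, Slc6a3, Aldh1a1, Ddc and Slc18a2, lay between 18147 and 20870 CPM in the controls. In the knockdown it lay between 11619.5 and 14633 CPM. Not called were Ddc, Foxa1, Foxa2 and Drd2, below 0, and Nr4a2 (0.25), Lmx1b (0.17) and En2 (0.13), above 0. Fewer dopamine neurons, less RNA per neuron and other reasons for lower markers cannot be told apart in these libraries. Of 6 markers of oligodendrocyte precursors 3 were called higher, and their summed level lay between 27.3 and 30.2 CPM in the controls and between 38.9 and 57.1 CPM in the knockdown. Of 10 astrocyte markers Aqp4 and S100b were called higher and Slc1a2 lower. The median log2 fold change of this list was 0.57, while its sum, most of it Slc1a2, went from between 268 and 314 CPM to between 251 and 254 CPM. Among microglia markers, Csf1r was called higher and P2ry12 lower. Of 10 vessel markers Cdh5 alone was called higher, near the share of all genes. The median was 0.74 and the sum was at most 8.87 CPM in every library. Of 10 markers of other neurons Chat (from a mean of 3.57 to 8.16 CPM) and Pvalb (from 13.3 to 20.4 CPM) were called higher, and the sums overlapped. No marker on these lists failed the filter on low counts. The part that these shifts have in the values below was not tested.

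Of the 70 protocadherin rows 69 passed the filter on low counts. Pcdh12, which is known from endothelium, had 8 counts in control library 3 and 0 in the other libraries. Of the 69 tested rows, 16 were called lower in the knockdown and none higher at an adjusted p under 0.05 in edgeR, and 53 did not pass. Among all 16766 genes tested, 12.6% were called lower and 8.48% higher. The groups did not overlap for 16 rows that were lower and 2 that were higher in the knockdown, and for 38.7% of all genes. With total-count scaling in place of TMM, none of the rows was called lower, against 5.8% of all genes, and Pcdh11x was called higher, against 16.5%. Besides the 16, Pcdh11x alone had an unadjusted p under 0.05, and DESeq2 called it higher. The 16 were all 14 alpha rows, Pcdhb22 of the beta cluster and the non-clustered gene Pcdh10. The 14 alpha calls are not 14 measurements, as the rows show.

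The alpha cluster lies on the plus strand of chromosome 18, and its longest row, Pcdha1, runs from 36930285 to 37187657 in GRCm38 (mm10). Going 5′ to 3′, each alpha row held fewer counts than the row before it, in all 78 comparisons of 13 neighbouring pairs in 6 libraries. In control library 1 the counts went from 21009 for Pcdha1 to 18873 for Pcdhac2. The gamma cluster, whose longest row, Pcdhga1, runs from 37661775 to 37841870, showed the same order in 126 of 126 comparisons, from 22484 counts for Pcdhga1 to 13164 for Pcdhgc5 in control library 1. Rows in each cluster thus behave as nested counts, in which a row includes what the rows downstream of it hold. The row Pcdha4-g fits this too: the rows Pcdha4, all beta genes, Taf7, Slc25a2 and Pcdhga1, which lie inside its span, summed to between 94.2% and 95.2% of its counts. Elsewhere in the table, a gene whose span encloses another gene had at least the count of the inner gene in every library for 86.9% of 107 pairs on the same strand and for 91.6% of 238 pairs on opposite strands. Pairs without enclosure were not compared, so these shares do not decide how reads were counted.

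**Figure D1:**
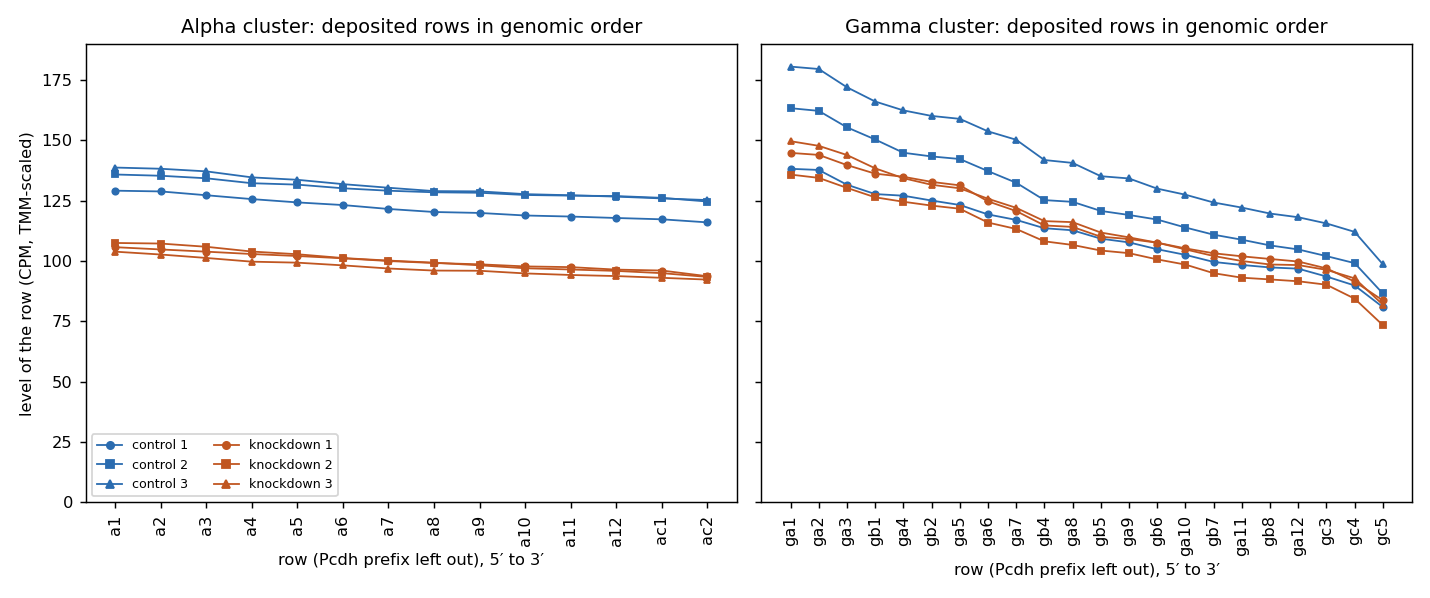
Level of each deposited alpha (left) and gamma (right) row in CPM, in genomic order, with 1 line per library (blue control, orange knockdown, marker by replicate number). Every line falls from left to right; the knockdown lines lie below all control lines in the alpha cluster, and the groups overlap in the gamma cluster.

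The difference between neighbouring rows was therefore taken as the count of the interval from the start of a member to the start of the next. The last interval of each cluster holds the last C-type exon together with the constant exons that all members share, and its reads cannot be allotted to a member. In the alpha cluster, the last interval, starting at Pcdhac2, held 89.8%, 91.8% and 90.3% of the counts of the whole cluster in control libraries 1 to 3. It held 88.6%, 86.9% and 88.9% in knockdown libraries 1 to 3. The 13 upstream intervals together held 10.2%, 8.24% and 9.71% in the controls and 11.4%, 13.1% and 11.1% in the knockdown, so that the share was higher in every knockdown library. In the gamma cluster the last interval, starting at Pcdhgc5, held 58.5%, 53.0% and 54.6% in the controls and 57.8%, 54.1% and 54.8% in the knockdown, and the groups overlapped.

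With the alpha and gamma rows replaced by these intervals, an analysis chosen after the data were seen, 4 protocadherin features were called lower and none higher: the last alpha interval, the Pcdhga2 interval, Pcdhb22 and Pcdh10. In that fit of 16765 features 12.6% were called lower and 8.39% higher, and the groups did not overlap for 38.6%. DESeq2 on the interval counts called the same 4 lower and Pcdh11x higher.

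The last alpha interval, which holds the Pcdhac2 exon and the alpha constant exons, was at 117, 125 and 126 CPM among controls and at 94.1, 93.8 and 92.7 CPM under the knockdown. The groups did not overlap, and the 3 knockdown libraries were close to each other. Its mean dropped to 93.5 ± 0.745 from 123 ± 5.29 CPM (SD, 3 libraries per group), with a log2 fold change of -0.39 ± 0.09 (SE; edgeR, adjusted p = 0.00881). The call held without any single library, with an adjusted p of at most 0.0488. Total-count scaling ended the call, and the log2 fold change was -0.22 (adjusted p = 0.0922). That scaling moved the median of all genes from 0.01 to 0.18.

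None of the 13 upstream alpha intervals was called. Their log2 fold changes lay between -0.45 and 1.30, with 7 above 0 and 6 below and a median of 0.00. Their summed level was 13.2, 11.3 and 13.5 CPM in the controls and 12.1, 14.1 and 11.6 CPM in the knockdown, with means of 12.7 ± 1.23 and 12.6 ± 1.33 CPM. The highest variable alpha interval, that of Pcdha3, was at 1.61, 2.06 and 2.50 CPM in the controls and at 0.979, 1.99 and 1.55 CPM in the knockdown. The lowest, that of Pcdha8, was at 0.395, 0.196 and 0.108 CPM and at 0.543, 1.10 and 0.0820 CPM. In both, the groups overlapped. Pcdhac1, the other alpha C-type isoform, was at 1.28, 1.54 and 0.683 CPM in its interval in the controls and at 2.37, 1.57 and 0.744 CPM in the knockdown (log2 fold change 0.42 ± 0.48, SE). The 14 deposited alpha rows had log2 fold changes between -0.39 and -0.35, against 0.01 for the median of all genes. Their adjusted p lay between 0.00882 and 0.0140. With total-count scaling none of the 14 was called, without control library 2 only the Pcdhac2 row was, and without knockdown library 1 there were 5.

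**Figure D2:**
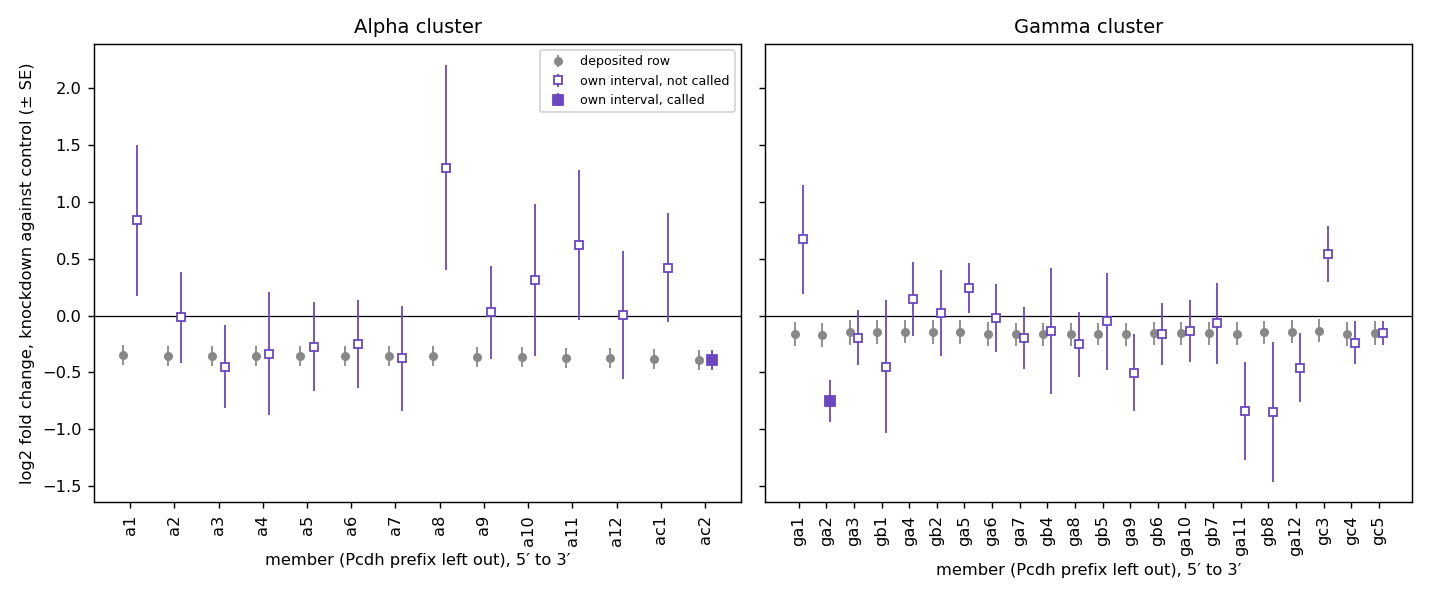
Log2 fold change, knockdown against control, with its standard error, for each alpha (left) and gamma (right) member in genomic order. Grey points are deposited rows, which repeat nearly 1 value per cluster; squares are the members' own intervals, filled where called (the last alpha interval and Pcdhga2).

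Expressed per kb of interval, control levels in the alpha cluster were between 0.00968 CPM per kb, for the long Pcdha12 interval, and 0.311 CPM per kb, for Pcdha3, upstream of the last interval at 2.79 CPM per kb. These lengths include introns, so they order the intervals only roughly.

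In the gamma cluster, no deposited row was called. Its 22 rows had log2 fold changes between -0.17 and -0.13 and adjusted p-values between 0.282 and 0.389. Each of the 8 gamma rows followed through the alternatives turned to a value between 0.00 and 0.04 with total-count scaling. The whole cluster, read from the Pcdhga1 row, was at 138, 163 and 181 CPM among controls and at 144.9, 136 and 149.7 CPM under the knockdown. Control library 1 lay within the knockdown range, and the other controls lay above it. The last gamma interval was at 81.3, 87.0 and 99.2 CPM in the controls and at 84.1, 73.7 and 82.3 CPM in the knockdown (log2 fold change -0.16 ± 0.11, SE). It did not pass the test, and a test of the difference between the alpha and gamma clusters was not run.

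Pcdhga2, an A-type gamma gene, gave the only variable interval of the gamma cluster in which the groups did not overlap. Its interval held 995, 1052 and 1126 counts among controls and 758, 638 and 607 under the knockdown. In CPM it was at 6.14, 6.86 and 7.61 and at 4.24, 4.17 and 3.83. Its mean dropped to 4.08 ± 0.220 from 6.87 ± 0.734 CPM (log2 fold change -0.75 ± 0.19, SE; edgeR, adjusted p = 0.0135). It kept the call with total-count scaling (-0.58, adjusted p = 0.0451) and lost it without control library 3 (adjusted p = 0.0540). The deposited Pcdhga2 row, at -0.17, shows almost none of this, since the interval is between 2.55% and 4.43% of the cluster's counts.

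The other 20 variable gamma intervals were not called. Of the 12 A-type intervals 9 had a log2 fold change below 0, of the 7 B-type intervals 6 did, and their medians were -0.20 and -0.13. Among the C-type isoforms, Pcdhgc3, which is known to be widely expressed, was at 3.73, 2.93 and 3.53 CPM in the controls and at 5.49, 5.80 and 3.53 CPM in the knockdown. Knockdown library 3 lay within the control range, and the difference did not pass (log2 fold change 0.54 ± 0.24, SE; edgeR, adjusted p = 0.140). It was called without that library (0.75, adjusted p = 0.0458). Pcdhgc4, another C-type isoform, known for neuronal survival, was at 8.99, 12.6 and 13.5 CPM in the controls and at 7.83, 11.02 and 10.9 CPM in the knockdown (-0.24 ± 0.19, SE). Per kb of interval the control levels of the gamma cluster were highest in the last interval, at 3.99 CPM per kb, then in Pcdhgc4 at 2.62, Pcdhga2 at 1.27 and Pcdhga7 at 1.15 CPM per kb. The Pcdhgb1 interval varied most between control libraries among the named gamma members, at 0.679, 5.53 and 3.70 CPM.

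**Figure D3:**
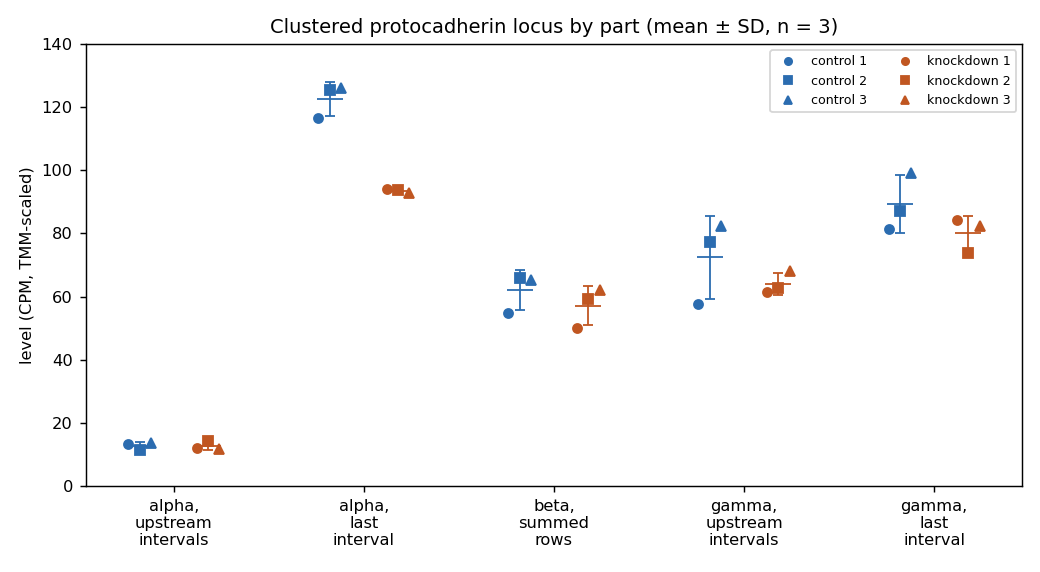
Level in CPM of the alpha and gamma clusters, each split into its upstream intervals and its last interval, and of the summed beta rows, with 1 point per library and bars for mean ± SD (n = 3). The groups are apart only for the last alpha interval.

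Beta genes do not share exons, and their rows did not fall along the cluster. The 21 rows on chromosome 18 run from the start of Pcdhb1 at 37264998 to the end of Pcdhb22 at 37521419. Of the 21, 1 was called lower and none higher, 11 had a log2 fold change above 0 and 10 below, and the median was 0.04. The share called was 4.76%, against 21.1% of all genes tested in either direction. Summed over the 21 rows the level was 54.7, 65.9 and 65.4 CPM in the controls and 50.1, 59.1 and 62.0 CPM in the knockdown. The groups overlapped, with means of 62.0 ± 6.34 and 57.0 ± 6.21 CPM.

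Pcdhb22, the most abundant beta gene, was at 7.19, 9.73 and 7.35 CPM among controls and at 5.46, 4.998 and 5.69 CPM under the knockdown. All knockdown libraries lay below all controls, as was the case for 20.8% of all tested genes. The log2 fold change was -0.59 ± 0.18 (SE; edgeR, adjusted p = 0.0387), and the call was lost with total-count scaling, with a filter at a mean of 1 CPM and when any library other than control library 1 was left out. Pcdhb20, the nearest beta row upstream, was at 2.87, 4.38 and 4.86 CPM in the controls and at 3.84, 2.92 and 2.05 CPM in the knockdown, and did not pass (-0.46 ± 0.29).

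The next beta genes in abundance were Pcdhb16, Pcdhb17, Pcdhb14 and Pcdhb18. Pcdhb16 was at 6.62, 4.88 and 5.96 CPM in the controls and at 4.41, 4.88 and 5.13 CPM in the knockdown. Pcdhb14 was at 3.86, 5.11 and 3.81 CPM and at 5.004, 3.39 and 6.34 CPM. The log2 fold changes of the 4 were -0.28, -0.20, 0.21 and -0.03, and none passed. Pcdhb1 was nearly silent, with 14, 0 and 19 counts in the controls and 80, 26 and 31 in the knockdown. It was higher in every knockdown library, as were 17.9% of all tested genes, but did not pass (1.91 ± 1.15, SE; edgeR, adjusted p = 0.270). The order of control levels among beta genes depends on the length used. Per kb of RefSeq span Pcdhb22 came first at 2.64 CPM per kb, before Pcdhb17 at 1.61 and Pcdhb12 at 1.37. Per kb of GENCODE exon, where Pcdhb22 is longer, Pcdhb12 came first at 1.37 CPM per kb, before Pcdhb22 at 1.22 and Pcdhb9 at 1.17. Pcdhb1 was last on both scales, at 0.0290 and 0.0275 CPM per kb.

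**Figure D4:**
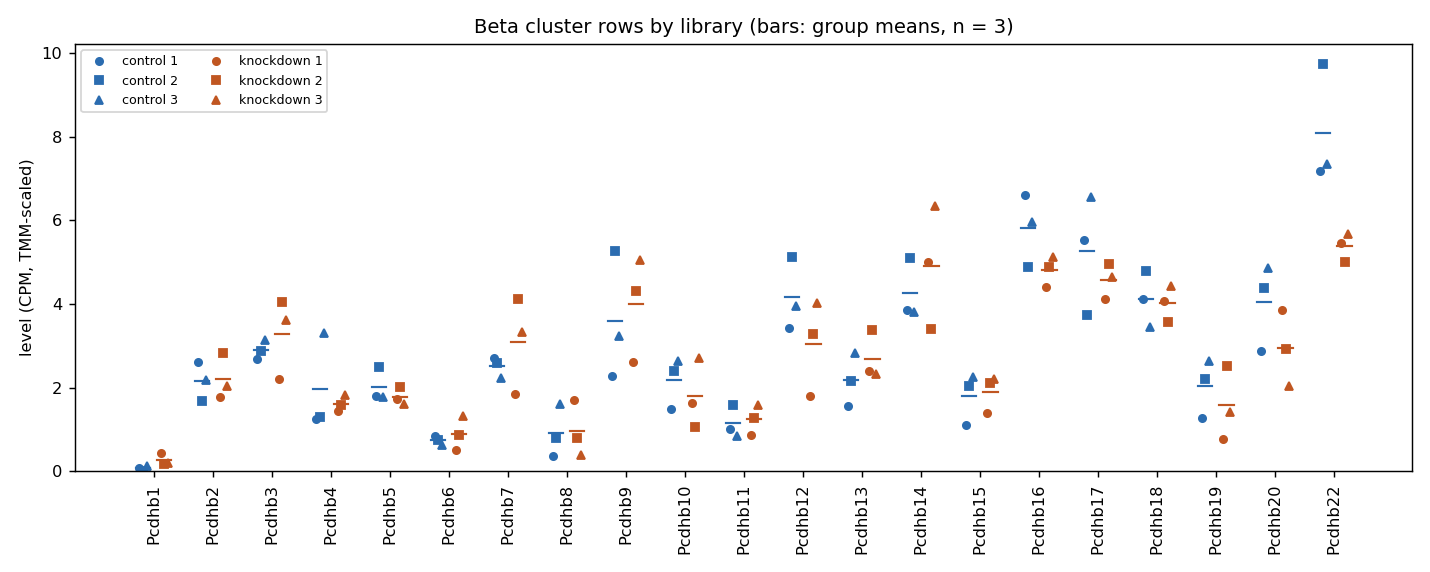
Level of each beta gene in CPM in every library, in order of gene number, with bars at the group means (n = 3). Only Pcdhb1, near 0, and Pcdhb22 have no overlap between the groups, in opposite directions.

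Spread between replicate libraries differed among the classes, and so did their levels. The median coefficient of variation between control libraries was 23.5% for the 18 beta genes at a mean between 1 and 8 CPM, and 21.5% for all 3545 tested genes in that range. In the knockdown the medians were 27.2% and 19.7%. For upstream alpha intervals, at a median level of 0.976 CPM, the median spread was 26.5% in the controls and 36.6% in the knockdown. For upstream gamma intervals, at 2.58 CPM, it was 26.6% and 25.2%. Deposited rows lay at higher levels, with 3.84% and 1.73% for alpha (113 CPM) and 11.1% and 4.43% for gamma (117 CPM).

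Among the non-clustered genes, 11 of 12 were tested, and 1, Pcdh10, was called lower, against 12.6% of all genes. Pcdh10, a delta-2 protocadherin that acts in axon pathways and synapse elimination, lies on chromosome 3 from 45378398 to 45434579 (gene identifier 18526). It was at 105, 122 and 122 CPM among controls and at 89.7, 89.97 and 79.0 CPM under the knockdown. The groups did not overlap. Its mean dropped to 86.2 ± 6.26 from 116 ± 10.2 CPM (log2 fold change -0.43 ± 0.10, SE; edgeR, adjusted p = 0.0104). Total-count scaling ended the call (-0.26, adjusted p = 0.0814), as did leaving out control library 2 (adjusted p = 0.0572).

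The span of Pcdh10 overlaps the row 1700027H10Rik on the opposite strand over 17996 bases. That row was lower too, from 55.8 ± 2.84 to 43.9 ± 5.42 CPM, and unless the counting used strand the reads of the pair cannot be told apart. If all of its counts were held in the Pcdh10 row, 52.1, 65.0 and 64.5 CPM would be left in the controls and 42.0, 43.6 and 41.3 CPM in the knockdown, again without overlap.

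The promoter windows of Pcdh10 and Pcdh17 are shown since both are abundant delta-2 genes, of which Pcdh10 was called and Pcdh17 was not. Each window holds 300 bases, 250 before and 50 after the annotated start, from RefSeq on GRCm38.p6, plus strand, at chr3:45378148-45378447 and chr14:84443313-84443612. Capitals mark CGCT on either strand (AGCG on the other), the letters at the centre of a conserved element of clustered protocadherin promoters; overlapping matches are joined.
Pcdh10: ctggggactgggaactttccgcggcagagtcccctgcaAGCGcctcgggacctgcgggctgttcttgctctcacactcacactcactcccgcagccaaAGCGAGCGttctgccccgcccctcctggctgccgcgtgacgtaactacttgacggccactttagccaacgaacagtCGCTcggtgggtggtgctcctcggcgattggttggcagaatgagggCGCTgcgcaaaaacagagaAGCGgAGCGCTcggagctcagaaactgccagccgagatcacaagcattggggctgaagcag
Pcdh17: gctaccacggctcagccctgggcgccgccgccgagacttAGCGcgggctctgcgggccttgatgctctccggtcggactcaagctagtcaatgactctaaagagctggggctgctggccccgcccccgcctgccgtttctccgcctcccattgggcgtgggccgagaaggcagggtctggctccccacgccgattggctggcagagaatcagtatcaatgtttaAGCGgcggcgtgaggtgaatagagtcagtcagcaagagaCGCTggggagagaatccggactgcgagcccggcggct

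The Pcdh10 window held 8 matches and the Pcdh17 window 3. The other non-clustered windows read, all of genes not called, held between 1 (Pcdh20) and 7 (Pcdh18). Of 32851 RefSeq promoter windows of that length 61.8% held at least 1, and the number of matches in them was not taken. No window of a clustered gene, Pcdh1, Pcdh11x or Pcdh12 was read. A CTCF core of 12 letters was also searched, and was in neither the Pcdh10 nor the Pcdh17 window. It was in 8.61% of all windows. GC content was 62.3% for Pcdh10 and 65.0% for Pcdh17, against a median of 52.7% for all windows. These matches are letters only and not sites. Pcdh17 is itself overlapped on the opposite strand by the row 9630013A20Rik, which rose from 0.608 ± 0.156 to 1.65 ± 0.287 CPM.

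Pcdh17, which acts in axon extension and presynaptic assembly, was at 66.2, 82.8 and 75.0 CPM in the controls and at 72.4, 71.8 and 73.2 CPM in the knockdown (log2 fold change -0.04 ± 0.10, SE). Pcdh19, a delta-2 protocadherin on chromosome X whose human counterpart is mutated in an epilepsy, was at 66.3, 67.8 and 84.2 CPM and at 67.1, 74.1 and 74.2 CPM (-0.02 ± 0.11). Pcdh9, of the delta-1 group, was at 67.3, 77.2 and 74.5 CPM and at 75.3, 81.9 and 70.6 CPM (0.06 ± 0.10). In all 3 the groups overlapped and none passed.

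Pcdh11x, a delta-1 protocadherin on chromosome X, was the non-clustered gene with higher values in every knockdown library. It was at 6.56, 6.06 and 7.38 CPM among controls and at 12.6, 7.52 and 8.61 CPM under the knockdown, and knockdown library 1 was well above the others. The log2 fold change was 0.52 ± 0.20 (SE; edgeR, adjusted p = 0.0887), and 0.28 without knockdown library 1. It was called by DESeq2 (0.53, adjusted p = 0.0487), with total-count scaling (0.70, adjusted p = 0.0305) and without knockdown library 2 (0.67, adjusted p = 0.0434).

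The other non-clustered members did not pass. Pcdh1 was at 32.9, 40.6 and 52.3 CPM in the controls and at 32.1, 34.4 and 40.7 CPM in the knockdown. Pcdh7 was at 35.9, 41.8 and 41.5 CPM and at 34.9, 36.5 and 36.1 CPM, with control library 1 inside the knockdown range. Pcdh8, an activity-regulated protocadherin also called arcadlin, was at 17.5, 19.8 and 23.4 CPM and at 17.0, 16.5 and 20.5 CPM. Their log2 fold changes were -0.23, -0.15 and -0.17. Those of Pcdh18 (0.01), Pcdh15, a part of hair cell tip links (0.08), and Pcdh20 (0.55 ± 0.41, at a control mean of 1.12 CPM) were on the other side of 0.

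Per kb of annotated exon, the control level was highest for Pcdh9, at 10.8 CPM per kb, followed by Pcdh10 at 7.32, Pcdh19 at 6.95, Pcdh17 at 5.75, Pcdh1 at 4.77, Pcdh8 at 4.46, Pcdh7 at 3.75 and Pcdh18 at 2.46 CPM per kb. Pcdh15, Pcdh11x and Pcdh20 were at 0.535, 0.478 and 0.204 CPM per kb. Where counts include introns, long genes such as Pcdh9 and Pcdh15 are placed too high in this order. On this scale the control ranges of neighbours overlapped from Pcdh10 through Pcdh19, Pcdh17, Pcdh1 and Pcdh8 to Pcdh7, and for Pcdh15 and Pcdh11x. Those of Pcdh9, Pcdh18 and Pcdh20 were apart from their neighbours.

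**Figure D5:**
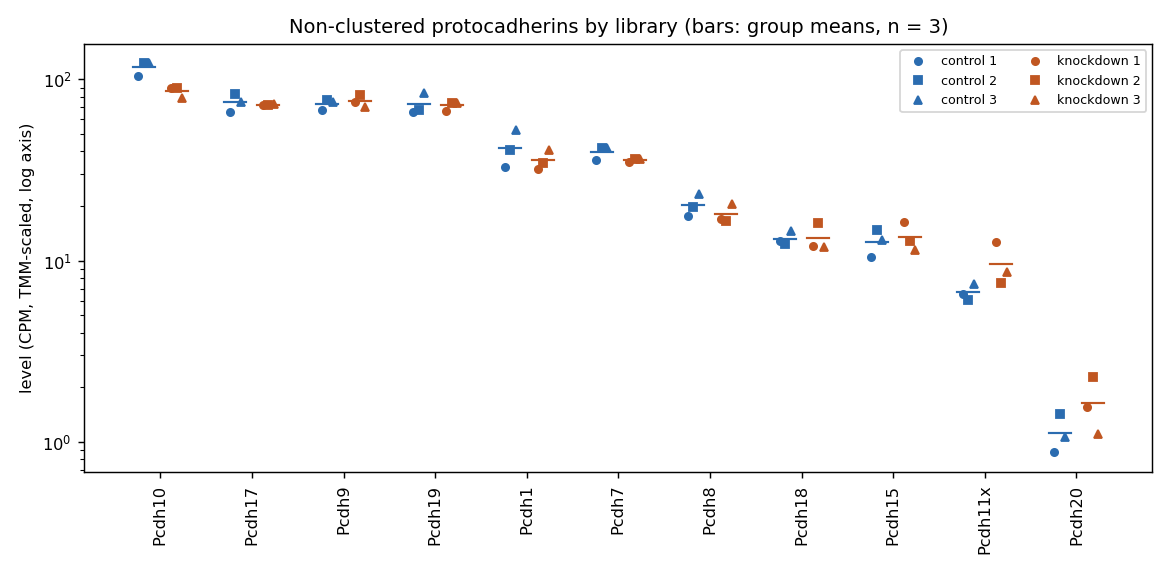
Level of the 11 tested non-clustered protocadherins in CPM on a log axis, in every library, ordered by control mean, with bars at the group means (n = 3). Only Pcdh10 (lower) and Pcdh11x (higher) have no overlap between the groups.

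Genes that act on or with protocadherins were read from 3 lists. Of 17 tested regulators of promoter choice, which include CTCF, cohesin and DNA methylation genes, 3 were called lower and none higher, with a median log2 fold change of -0.14. Over all genes 12.6% were called lower and 8.48% higher, and 1 of the 3 is the targeted gene. DESeq2 called 1 regulator higher. The 3 were Satb1 itself, the cohesin subunit gene Rad21, which fell from 143 ± 17.4 to 104 ± 10.2 CPM (-0.46 ± 0.11, SE), and the cohesin regulator gene Pds5a (-0.43 ± 0.12). Ctcf was at 47.4 ± 2.66 CPM in the controls and 45.9 ± 1.07 CPM in the knockdown (-0.05 ± 0.10), and Smchd1, which represses the clusters, at 26.2 ± 7.06 and 23.7 ± 8.11 CPM. Neither passed. Total-count scaling ended the calls for Rad21 and Pds5a, as did leaving out control library 3 or knockdown library 1, and for Pds5a knockdown library 2 or 3.

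Of 21 tested partners and signalling genes, 6 were called lower and none higher, against 12.6% and 8.48% of all genes, with a median of -0.19. Ret, a receptor of GDNF ligands that binds alpha and gamma protocadherins and also stands on the dopamine neuron list, fell from 815 ± 48.7 to 581 ± 70.0 CPM (-0.49 ± 0.10, SE). Cyfip2, Abi2 and Abi1, subunits of the WAVE complex that binds the tail of some protocadherins, fell by 0.37, 0.39 and 0.35 on the log2 scale. The call for Abi1 held in 1 of 6 fits without a library. Other WAVE genes on the list were not called: Wasf1 (-0.04), Wasf2 (0.25), Wasf3 (-0.23), Nckap1 (-0.21) and Cyfip1 (-0.02). With total-count scaling 1 partner was called lower and 1 higher, against 5.8% and 16.5% of all genes. There were 3 lower without control library 2 or 3 and 1 without knockdown library 1. Of 12 tested large cadherins outside the family, Fat1 rose (0.44), Fat4 (-0.38) and Clstn2 (-0.42) fell, again against 8.48% higher and 12.6% lower of all genes, and the median was -0.08. With total-count scaling neither Fat4 nor Clstn2 was called, and without control library 2 or knockdown library 1 none of the 3 was.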

How the data were processed

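The authors deposited whole-number counts per gene for 6 libraries. Per the submitters' processing notes, TopHat2 2.0.8 was used with mm10. How reads were counted, by strand or over overlapping genes, is not given in the sources used here. Groups and replicate numbers came from the sample titles. All 70 protocadherin identifiers matched RefSeq genes of GRCm38.p6, which gave spans and order; exon lengths came from GENCODE M21.

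Counts were tested in edgeR 4.0.16 (R 4.3.3; glmQLFTest, TMM, filterByExpr with a minimum count of 10 and total of 15, Benjamini-Hochberg over all 16766 genes, threshold 0.05), checked on simulated data. Standard errors came from the F statistic. Interval counts of the alpha and gamma clusters are differences of neighbouring rows, fitted in the same way without Pcdha4-g. Library sizes then hold shared reads once, so CPM differ slightly from the rows. Alternatives included DESeq2 1.42.0.

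Members and lists were chosen with earlier results of these data known. Named genes were Satb1, all non-clustered genes, C-type isoforms, the 5 most abundant and up to 6 called members of each cluster, and up to 4 called genes of each list; other named members and intervals were chosen after their values were seen. A result on the microglia list is not reported here.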

Additional observations from a re-analysis of the deposited data

How the results depend on the processing

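Relative log expression scaling left the same 16 rows lower and 0 higher. With total-count scaling 0 protocadherin rows were lower and 1 higher, against 16 and 0, and the log2 ratio of the summed level moved from -0.364 to -0.195 for alpha rows, from -0.12 to 0.0474 for beta rows, from -0.156 to 0.0151 for gamma rows and from -0.122 to 0.0476 for non-clustered rows. Sums over alpha and gamma rows count shared reads repeatedly. DESeq2 called 1 row higher. Merging the rows of each cluster left 3 lower, and interval counts left 4. Leaving out 1 library gave between 1 and 16 lower rows, with 1 without control library 2, and between 0 and 1 higher. Satb1 was called lower in every alternative, from -2.24 to -1.43 without single libraries. With the replicate number as a block (replicate block) 17 rows were lower, Pcdha4-g in addition. Same-numbered libraries correlated at 0.0564, 0.0127 and 0.108 in their deviations, and differently numbered ones between -0.101 and 0.0480. For every control library the same-numbered value was the highest. Read by knockdown library this failed for library 2, at 0.0480 with control library 1 and 0.0127 with control library 2. These small values do not settle whether the numbers pair the libraries.

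Values near 0 changed sign. Total-count scaling moved the median of all genes from 0.01 to 0.18, and values down to -0.17 changed sign with it. With total-count scaling they were 0.00176 for Pcdh8, 0.127 for Pcdh17, 0.0197 for Pcdh7, 0.15 for Pcdh19, 0.135 for Pcdhb18, and 0.0166 for the last gamma interval. For deposited gamma rows they were 0.0364 for Pcdhgc3, 0.00704 for Pcdhgc4, 0.0169 for Pcdhgc5, 0.00684 for Pcdhga1, 0.000796 for Pcdhga2, 0.022 for Pcdhga3, 0.0236 for Pcdhgb1 and 0.0298 for Pcdhga4, while the intervals of Pcdhgc4 and Pcdhga2 kept their sign at -0.0704 and -0.58. At a mean of at least 1 CPM they were 0.00349 for Pcdh17, 0.0265 for Pcdh19 and 0.0131 for Pcdhb18. Without single libraries the range was -0.0658 to 0.205 for Pcdh15, -0.124 to 0.0371 for Pcdh17, -0.142 to 0.101 for Pcdh18, -0.0837 to 0.0972 for Pcdh19, -0.00734 to 0.414 for Pcdhb14, -0.145 to 0.0900 for Pcdhb18 and -0.00154 to 0.769 for the Pcdhac1 interval. The cause of these changes was not tested.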
